A study of Mus musculus with 3 samples.

Results

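The 34 genes described here encode aminoacyl-tRNA synthetases, the enzymes that join each amino acid to its tRNA. They were listed by name and looked up by symbol among the 55536 genes of GENCODE release M21, of which 22028 are protein-coding, and all 34 were found. By textbook location of the enzyme, 17 are cytosolic, 15 are mitochondrial and 2, Kars and Gars, serve both compartments from 1 gene. The RNA, selected for polyA tails, came from regulatory T cells labelled as activated, of a male mouse aged 4 months, of the strain Foxp3CreERT2 x Rosa26YFP, in which the Foxp3 locus drives a tamoxifen-inducible Cre and YFP is a reporter of it. The 3 libraries were technical replicates 1, 2 and 3 of 1 biological replicate, with sheared fragments of 100 to 300 bp. All libraries analysed here form 1 group, and the sources used here do not give how the cells were gated or activated, so levels and the spread between libraries are reported and no condition is compared.

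A synthetase first activates its amino acid with ATP and then transfers it to the end of the matching tRNA, and this step sets which amino acid a codon is read as. Most amino acids have a pair of enzymes, both encoded in the nucleus: one charges tRNA for cytosolic ribosomes and the other, imported into mitochondria, charges tRNA for the few proteins encoded by mitochondrial DNA. The enzymes fall into class I and class II by the fold of the catalytic domain, and several cytosolic ones sit together in a multi-synthetase complex held by scaffold proteins. In activated T cells, which grow before they divide, amino acid supply and synthetase expression are known to rise with protein synthesis. Uncharged tRNA is sensed by the kinase GCN2, which leads to translation of the transcription factor ATF4, and ATF4 acts on many synthetase genes through C/EBP-ATF elements.

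The libraries held 10981924, 9700630 and 6667391 expected counts (a program's estimate of the reads that belong to each gene) in replicates 1, 2 and 3. Markers of T cells and of regulatory T cells were present: all 7 T cell markers and all 5 regulatory T cell markers reached a TPM (a transcript level scaled for length and library size) of 1 in every library. The libraries were not alike in markers of other cells. The summed TPM of 5 erythroid markers was 795, 5.30 and 23.4 in replicates 1, 2 and 3, so replicate 1 stood apart. The summed TPM of 5 plasma cell markers was 108, 69.7 and 172, highest in replicate 3. The 6 B cell markers summed to 1044, 1196 and 895 TPM, of which Ighm alone held 943, 1128 and 811 TPM. The order of this sum was that of Ighm and not of most of the list. On the count scale, 5 of the 6 were highest in replicate 1 and 1 in replicate 2. Of the same 6, 4 were lowest in replicate 2 and 2 in replicate 3. The summed TPM was 23.9, 9.21 and 21.7 for 5 myeloid markers and 16.2, 14.97 and 13.0 for 2 CD8 markers. The 7 T cell markers summed to 8181, 8208 and 5306 TPM, and each of the 7 was lowest in replicate 3 on the count scale. Of the 5 regulatory T cell markers, 2 were highest and 3 lowest in replicate 3 on that scale, beside 35.3% and 45.6% of all genes. Ctla4 had 190, 250 and 612 TPM, Foxp3 29.5, 28.7 and 49.8 TPM, and Tnfrsf18 663, 587 and 368 TPM. In bulk RNA, fewer cells of a type and less RNA per cell cannot be told apart. P-values below measure only the spread between these technical libraries.

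Sequences are shown for 2 sets of members that the results turn on. The first is a stretch in the last exon of Lars2, whose level depended on the quantification more than that of any other member. The match was between transcripts Lars2-209 and 1 of Gm15564 in GENCODE M21, over 72 bases of which 98.6% were identical, and 30 bases common to both are printed from 5′ to 3′. On mm10 they lie at chr9:123462049-123462078 on the plus strand, in the 3′ UTR of Lars2, and at chr16:35981766-35981795 on the minus strand, in the antisense gene Gm15564. The last line is the 3′ end of Lars2-209, at chr9:123462637-123462666 on the plus strand, with capitals for the 2 bases by which it extends past the protein-coding transcript Lars2-201.
Lars2-209, shared stretch: aattcaccaagcgttggattgttcacccac
Gm15564, shared stretch: aattcaccaagcgttggattgttcacccac
Lars2-209, 3′ end: cattgaattaataaatgttgtgaaccatAA

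The second set is the 5 member promoters that hold the letters TGATGNAA, the core of a C/EBP-ATF element, on either strand. RefSeq promoter windows of GRCm38.p6, from 250 bases before the start to 50 after it, were matched for 26 of the 34 genes. The genes Cars, Hars, Hars2, Lars, Nars, Rars, Vars and Wars had no entry. Each line runs from 50 bases before the start to 20 bases from it, along the strand of the gene, with capitals for the motif or its reverse complement. The windows lie at chr8:111033792-111033861 (plus strand) for Aars, chr6:55037951-55038020 (plus) for Gars, chr13:49682080-49682149 (plus) for Iars, chr15:11399639-11399708 (minus) for Tars and chr4:129189853-129189922 (plus) for Yars.
Aars: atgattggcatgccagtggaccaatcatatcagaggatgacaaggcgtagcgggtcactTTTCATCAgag
Gars: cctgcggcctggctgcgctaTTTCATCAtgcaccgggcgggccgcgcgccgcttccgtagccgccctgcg
Iars: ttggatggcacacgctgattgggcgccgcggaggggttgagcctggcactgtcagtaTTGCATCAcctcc
Tars: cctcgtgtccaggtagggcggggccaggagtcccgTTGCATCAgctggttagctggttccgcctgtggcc
Yars: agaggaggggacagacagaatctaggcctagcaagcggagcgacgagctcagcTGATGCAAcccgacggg

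Of the 26 promoters, 5 held TGATGNAA, against 3.97% of all 32851 promoter windows. They were 4 of 10 cytosolic genes (Aars, Iars, Tars, Yars), 1 of 2 dual genes (Gars) and 0 of 14 mitochondrial genes. The E-box letters CACGTG, which read the same on both strands, were in 5 of the 26 (Aars, Farsb, Iars, Tars and the mitochondrial Ears2), against 7.15% of all windows. Thus Aars, Iars and Tars held both motifs, at places that did not overlap. The cAMP response element TGACGTCA was in 0 of the 26, against 1.79% of all windows. These matches describe letters only, and no binding was measured.

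All 34 genes reached a TPM of 1 in all 3 libraries, against 45.3% of the 22028 protein-coding genes. Their mean TPM ran from 2.66 for Mars2 to 503 for Lars2, and 23 of the 34 were among the 5000 protein-coding genes with the highest mean TPM. The 17 cytosolic genes lay between 19.8 and 142 TPM, and the 15 mitochondrial genes between 2.66 and 503 TPM. The mean TPM of 10 of the 15 mitochondrial genes was below that of Aars, the lowest cytosolic gene.

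**Figure D1:**
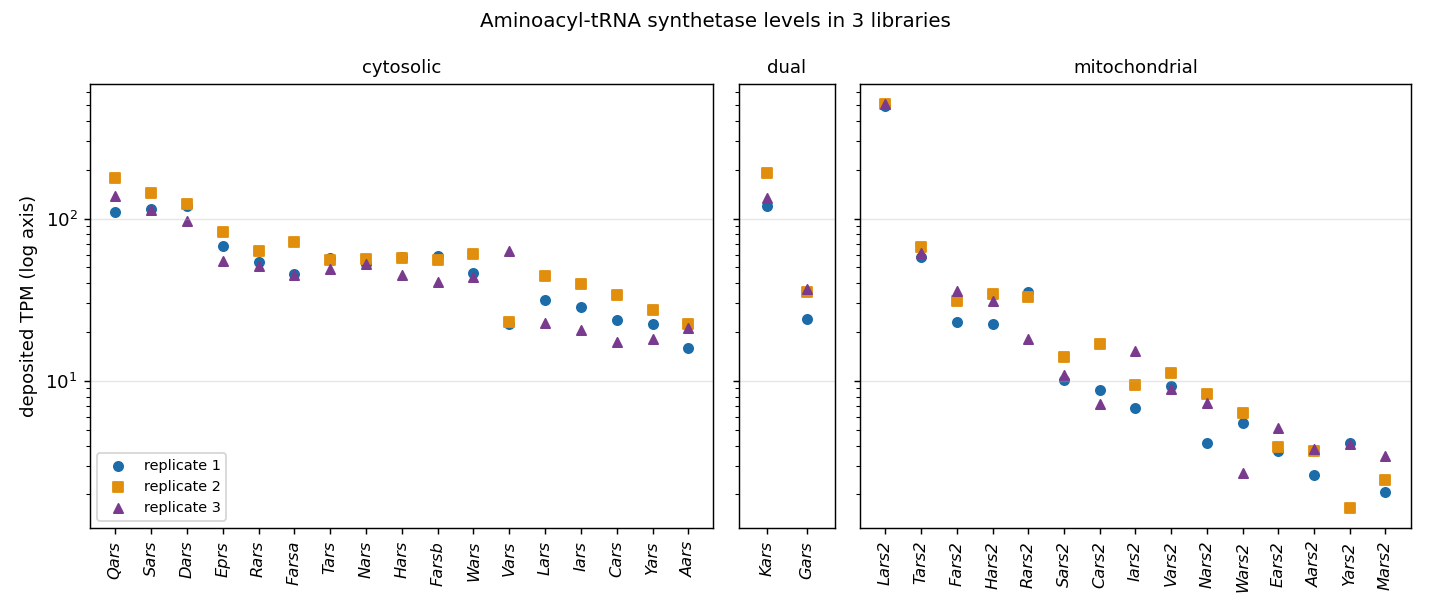
TPM of each synthetase gene (log axis) in replicates 1, 2 and 3, ordered by mean TPM within cytosolic, dual and mitochondrial genes. Cytosolic means lay between 19.8 and 142 TPM, while mitochondrial means lay between 2.66 TPM for Mars2 and 503 TPM for Lars2.

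Among the cytosolic enzymes, those of the multi-synthetase complex were measured first. Qars, which charges glutamine, had 110.3, 177 and 138 TPM in replicates 1, 2 and 3 (142 ± 33.8, SD, n = 3). Dars, for aspartate, had 120.3, 123 and 96.4 TPM (113 ± 14.8). Eprs, a single protein that charges both glutamate and proline, had 67.6, 82.4 and 54.9 TPM (68.3 ± 13.8). Qars and Dars thus lay above Eprs in every library.

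Rars, for arginine, had 54.4, 63.1 and 51.0 TPM. Lars, for leucine, had 31.3, 44.1 and 22.9 TPM, and Iars, for isoleucine, had 28.6, 39.4 and 20.6 TPM. Lars and Iars were the lowest members of the complex, and both were lowest in replicate 3. The 7 listed genes of the complex, with Kars, had a median log2(TPM + 1) of 6.10 ± 0.29 (SD over 3 libraries), and the 12 other cytosolic or dual genes 5.63 ± 0.17.

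Outside the complex, Sars, for serine, was highest, with 115, 145 and 113 TPM (124 ± 17.9). The genes for asparagine, threonine and histidine lay close together: Nars had 52.8, 56.6 and 52.3 TPM, Tars had 57.3, 55.6 and 49.2 TPM, and Hars had 57.6, 57.2 and 44.7 TPM. Their values overlapped over the libraries. Nars had the lowest coefficient of variation of TPM among the cytosolic genes, 4.32%, and Vars, for valine, the highest, 64.4%. On TMM-scaled counts Nars was less even, with log2 deviations of 0.10, 0.19 and -0.30.

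Cytosolic phenylalanyl-tRNA synthetase is built from an alpha subunit (Farsa) and a beta subunit (Farsb) in equal number. Farsa had 45.8, 72.1 and 45.2 TPM, and Farsb had 59.1, 55.7 and 40.9 TPM. Farsa over Farsb was 0.775, 1.30 and 1.11 in replicates 1, 2 and 3 (1.06 ± 0.26), so neither subunit was higher in all libraries. Per coding base of the M4 counts, described with Lars2, the ratio was 1.10 ± 0.29.

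Wars, for tryptophan and known to be induced by interferon-gamma, had 46.4, 60.8 and 43.9 TPM (50.4 ± 9.13). Cars, for cysteine, had 23.8, 34.02 and 17.4 TPM. Yars, for tyrosine, had 22.4, 27.4 and 18.1 TPM. Aars, for alanine, had the lowest mean of the 17 cytosolic genes, with 15.9, 22.4 and 21.2 TPM (19.8 ± 3.45).

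Kars and Gars make both forms of the lysine and glycine enzyme. Kars, at chr8:111993443-112011323 on the minus strand of mm10, had the highest mean of any member other than Lars2, with 119, 192 and 135 TPM (148 ± 38.3). Gars had 24.0, 35.3 and 37.0 TPM (32.1 ± 7.04), lowest in replicate 1. The transcript Kars-201, with 595 codons, carried 87.4%, 84.0% and 79.4% of the TPM of Kars. The longer coding sequences of 624 codons, in Kars-202 and Kars-203, held 7.98, 24.0 and 10.2 TPM and 6.48, 5.81 and 15.9 TPM. In the human gene, the longer form carries the signal for mitochondrial import. For Gars, 1 transcript, Gars-201, carried 98.5%, 99.3% and 99.1% of TPM, and in human the compartments are served by different start codons of 1 transcript, which these values do not separate.

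Among the mitochondrial enzymes other than Lars2, 4 lay in the range of the cytosolic genes. Tars2 had 57.7, 66.5 and 61.4 TPM (61.9 ± 4.41). Fars2 had 23.0, 31.2 and 35.9 TPM, and Hars2 had 22.4, 34.3 and 31.1 TPM. Rars2 had 35.4, 32.7 and 18.1 TPM and was lowest in replicate 3, which on the TPM scale the other 3 were not. On TMM-scaled counts Tars2 was also lowest in replicate 3, with log2 deviations of 0.16, 0.13 and -0.28.

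Sars2 (10.2, 13.9 and 10.9 TPM), Cars2 (8.77, 16.8 and 7.16 TPM), Iars2 (6.85, 9.45 and 15.2 TPM) and Vars2 (9.26, 11.2 and 8.95 TPM) lay near 10 TPM. Nars2 had 4.17, 8.31 and 7.26 TPM, Wars2 had 5.52, 6.30 and 2.71 TPM, and Ears2, for glutamate, had 3.71, 3.92 and 5.12 TPM. Iars2 was highest in replicate 3, and Cars2 in replicate 2. The lowest members were Aars2 with 2.64, 3.71 and 3.82 TPM, Yars2 with 4.17, 1.65 and 4.06 TPM, and Mars2, for methionine, with 2.08, 2.44 and 3.46 TPM (2.66 ± 0.72). Mars2 was not among the lowest in the M4 counts per coding base, described with Lars2, where its level was 13.1 ± 3.40 and its rank 26 of the 34. That rank depends on the division by coding length, since 1758 of the 11294 exon bases of Mars2 are coding. Its M4 count over its expected count averaged 0.972.

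Lars2 encodes the mitochondrial leucine enzyme and lies at chr9:123366927-123462666 on the plus strand of mm10. In the main table it had 495, 505 and 509 TPM (503 ± 7.29), which placed it 245th among protein-coding genes by mean TPM and gave it 71.6%, 67.6% and 70.3% of the summed TPM of the 15 mitochondrial enzymes. No other member varied so little in TPM, with a coefficient of variation of 1.45%. The deposited tables did not give 1 answer for this gene. A table of whole-number counts on release M4 held 140, 191 and 110 Lars2 counts, while the main table held 15812, 13276 and 9908 expected counts.

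The M4 count over the expected count averaged 0.0114 for Lars2. For the other 33 members its median was 1.78, and it ranged from 0.972 to 2.21. Divided by the coding length and scaled as TPM is, the M4 counts put Lars2 at 5.84 ± 1.34 (SD, n = 3), rank 32 of the 34 members, and not at rank 1. A second deposited quantification, made from the reads without a genome alignment, gave 998, 1032 and 1129 TPM, or 2.09 times the main TPM, where the other 33 members had a median of 0.551 times.

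**Figure D2:**
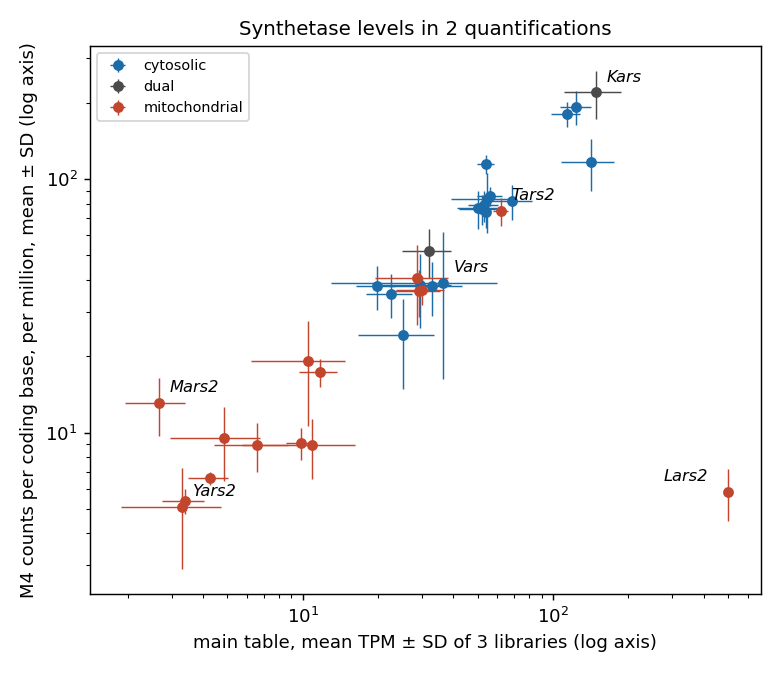
Each point is 1 synthetase gene, with its mean TPM of the main table on the x axis and its mean M4 count per coding base, scaled as TPM is, on the y axis (both log axes, bars are the SD of 3 libraries). Lars2 lies apart, at 503 TPM in the main table and 5.84 in the M4 counts.

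The Lars2 signal in the main table sat on 1 transcript. Lars2-209, annotated as subject to nonsense-mediated decay, held 490.9, 495 and 504 TPM, which was 99.2%, 98.0% and 99.1% of the gene. The protein-coding Lars2-201 held 1.55, 7.52 and 2.55 TPM. Both transcripts share the last exon, chr9:123461499-123462666 for Lars2-209, in which the stretch printed above lies, and they differ at the 3′ end by the 2 bases in capitals. They also differ elsewhere: Lars2-209 has 3756 bases and Lars2-201 has 3894, with coding ends at chr9:123438212 and chr9:123461675.

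Gm15564, the antisense gene on chromosome 16 that holds the same stretch, had 2.49, 2.36 and 0 TPM in the main table but 731, 705 and 649.9 TPM in the second quantification. AA474408, whose transcript AA474408-201 matched Lars2-209 over 196 aligned bases with 80.1% identity, had 1.59, 2.02 and 3.54 TPM in the main table and 122, 136 and 149.9 TPM in the second. Both genes were higher in the second quantification than in the main table. Over the 12997 genes tested, second over main TPM had a median of 0.596 and ran from 0 to 96.2. Whether the shared letters bear on the level of Lars2 was not tested. Lars2 took 0.144%, 0.137% and 0.149% of all expected counts. The ribosomal RNA entry CT010467.1 took 2.23%, 2.05% and 3.10%. This entry was not among the matches of Lars2-209 at an e-value of at most 1e-20, and its part in the Lars2 level was not tested.

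Where along Lars2 the reads lay is not given by these tables. The ratio of M4 to expected counts was also read over protein-coding genes with M4 counts that averaged 100 expected counts or more. They were split into 3 bins of 2663 genes each, ordered by the coding share of the exons. The median ratio was 0.830, 1.17 and 1.56 in the lowest, middle and highest bin, with median coding shares of 0.178, 0.330 and 0.540. Lars2, with 25.5% of its exon bases coding, had a ratio of 0.0114, below the median of each bin. The sources used here do not give the counting rule of the M4 table. The summaries of the mitochondrial and class I genes are therefore given with and without Lars2.

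The median log2(TPM + 1) was 5.71 ± 0.16 for the 17 cytosolic genes and 3.40 ± 0.18 for the 15 mitochondrial genes (SD over 3 libraries). The median over the 12997 genes that averaged 10 counts or more was 3.94 ± 0.06. Cytosolic minus mitochondrial was 2.46, 2.24 and 2.22 in replicates 1, 2 and 3, a mean of 2.31 ± 0.13, or 4.94-fold. Without Lars2 it was 2.44 ± 0.15. The difference was larger than the spread between libraries in each, and genes were listed rather than sampled, so no test was made.

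Sums gave another picture, since 1 gene dominated the mitochondrial one. The cytosolic genes summed to 931, 1140 and 892 TPM, and the mitochondrial genes to 691, 747 and 724 TPM. Without Lars2 the mitochondrial sum was 196, 242 and 215 TPM. Class I genes had a median log2(TPM + 1) of 4.54 ± 0.29 (4.49 ± 0.25 without Lars2) and class II genes 5.64 ± 0.19, leaving out Eprs, which holds a domain of each.

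Of the members, 28 form 14 pairs of a cytosolic and a mitochondrial enzyme for the same amino acid, with Farsa taken for phenylalanine. In 12 of the 14 pairs the cytosolic gene was higher in all 3 libraries. On the log2(TPM + 1) scale, the largest differences were 3.71 ± 0.46 for Eprs over Ears2, 3.31 ± 0.06 for Sars over Sars2 and 3.18 ± 0.38 for Wars over Wars2 (SD, n = 3 each). Nars over Nars2 gave 2.90 ± 0.42, Yars over Yars2 2.50 ± 0.81 and Aars over Aars2 2.24 ± 0.06. These 6 pairs had a mean TPM ratio above 4.

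Smaller differences were found for valine, isoleucine, cysteine, arginine, histidine and phenylalanine. They were 1.62 ± 0.93 for Vars over Vars2, 1.43 ± 0.88 for Iars over Iars2 and 1.16 ± 0.19 for Cars over Cars2. Rars over Rars2 gave 0.99 ± 0.43, Hars over Hars2 0.85 ± 0.42 and Farsa over Fars2 0.82 ± 0.45. The valine and isoleucine pairs had the largest spreads: in replicate 3, Vars over Vars2 was 2.69 and Iars over Iars2 was 0.41. In replicates 1 and 2 the valine values were 1.19 and 0.99, and the isoleucine values 1.91 and 1.95, so the order of these pairs turned in replicate 3.

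The 2 exceptions were threonine and leucine. Tars over Tars2 was -0.01, -0.25 and -0.31, so the mitochondrial gene was about the same or a little higher, and Lars over Lars2 was -3.94, -3.49 and -4.42. The second quantification kept both directions, with means of -0.23 for threonine and -5.46 for leucine, and both turned under 2 other settings. On M4 counts per coding base, Tars over Tars2 was 0.61 and Lars over Lars2 was 2.50, and 13 of the 14 pairs were higher in the cytosolic gene in all libraries. With TPM of protein-coding transcripts only, the values were 0.058 and 2.19.

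**Figure D3:**
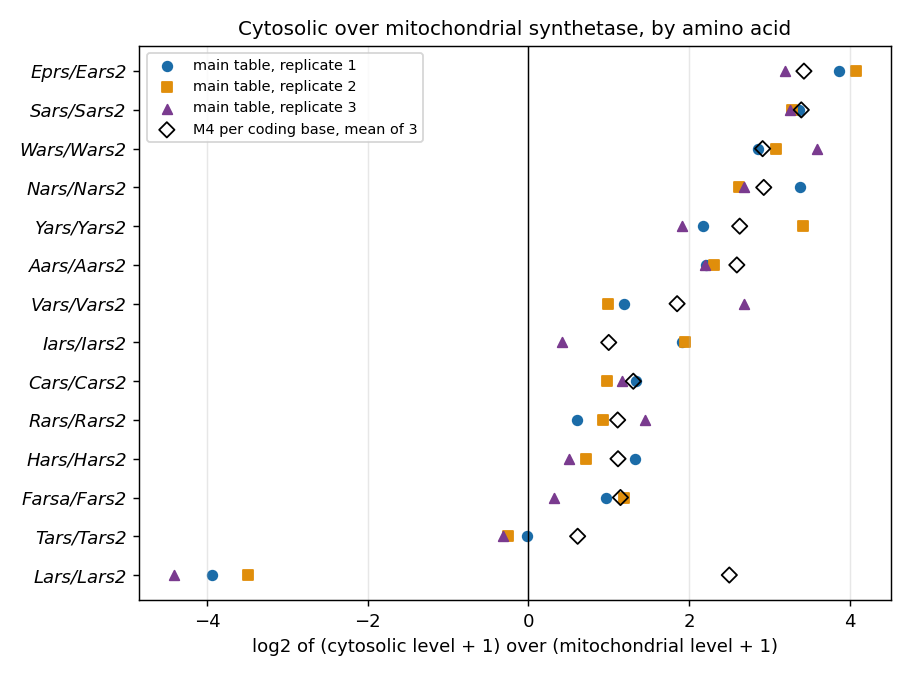
Log2 of the cytosolic over the mitochondrial level for 14 amino acids, with filled points for replicates 1, 2 and 3 of the main table and open diamonds for the mean of the M4 counts per coding base (1 was added to each level). The leucine pair lies near -3.95 in the main table and at 2.50 in the M4 counts, and 12 pairs lie above 0 in all 3 libraries.

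Whether a gene differed between the libraries was tested across all 12997 genes on TMM-scaled expected counts. A chi-square test against sampling noise alone, with Benjamini-Hochberg adjustment, called 32 of the 34 synthetases at an adjusted p under 0.05, beside 65.4% of all genes tested. The called genes were all 17 cytosolic genes, both dual genes and 13 of the 15 mitochondrial genes. Aars2 (adjusted p = 0.160) and Sars2 (adjusted p = 0.220) did not pass this test across all genes. With the filter raised to an average of 100 counts, the same test called 29 of 30 synthetases, beside 77.2% of 8485 genes. When the variance was widened by edgeR's trended dispersion, which differs by abundance, the test called 1 of the 34, Vars, beside 1.2% of all genes. At an unadjusted p under 0.05 it found 2, Vars and Iars2. The trended dispersion was estimated from these same 3 libraries, so a call marks a gene that stands out from others of like abundance. Against sampling noise, 28, 23 and 23 synthetases were called without replicates 1, 2 and 3 in turn, beside 51.7%, 53.6% and 32.2% of all genes tested.

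Vars lies at chr17:35000987-35016322 on the plus strand of mm10. It had 22.4, 23.2 and 63.2 TPM in replicates 1, 2 and 3 (36.3 ± 23.4, SD, n = 3), with replicate 3 well above the other 2. Its log2 deviations from the mean of the libraries, on TMM-scaled counts, were -0.28, -0.53 and 0.81, with an adjusted p of 0.0437 from the test with edgeR's dispersion. The adjusted p was 1.41e-71 against sampling noise alone, and under the other settings and without each library it lay between 2.10e-178 and 0.0178, the last without replicate 3.

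The rise of Vars in replicate 3 was seen in its transcripts and in the other tables. Protein-coding Vars-201 had 11.5, 13.9 and 22.1 TPM. The retained-intron transcripts Vars-212 and Vars-203 had 6.26, 2.97 and 17.3 TPM and 4.38, 0 and 12.3 TPM. The M4 table held 1178, 893 and 1735 Vars counts, highest in replicate 3, although that library had the lowest total. Plasma cell markers were highest in the same library, at a sum of 172 TPM against 108 and 69.7 TPM in replicates 1 and 2, and their part in the level of Vars was not tested. Ctla4 and Foxp3 were also highest there, while 3 of the 5 regulatory T cell markers were lowest, and their part was not tested either.

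Most other cytosolic genes were lowest in that library. On TMM-scaled counts, 15 of the 17 cytosolic genes were lowest in replicate 3, as were 45.6% of all genes tested, and 11 of the 17 were highest in replicate 2, as were 31.2% of all genes tested. The exceptions in replicate 3 were Vars and Qars, whose deviations were -0.30, 0.33 and -0.03. Iars (0.10, 0.48 and -0.58) and Cars (-0.07, 0.55 and -0.48) lay furthest below their means there. The median deviation of the cytosolic genes was 0.02, 0.23 and -0.24, and that of all genes tested 0.03, 0.03 and -0.04.

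The count of cytosolic genes lowest in replicate 3 was 15 with DESeq2 size factors (43.5% of all genes) and in the second quantification (49.6%). It was 14 with plain totals (40.1%), on deposited TPM (41.5%) and on M4 counts per coding base (40.3%). The T cell markers were lowest in the same library, with a median deviation of 0.22, 0.18 and -0.41, and their part was not tested. None of the cytosolic genes other than Vars was called with edgeR's trended dispersion.

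Of the 15 mitochondrial genes, 8 were lowest in replicate 1, as were 28.5% of all genes tested, and 5 were lowest in replicate 3. The count lowest in replicate 1 was 10 on deposited TPM (39.2% of all genes) and 11 on M4 counts per coding base (37.2%). On TMM-scaled counts, 4, 5 and 6 were highest in replicates 1, 2 and 3, beside 33.4%, 31.2% and 35.3% of all genes tested. Their median deviation was -0.16, 0.13 and 0.00. Without Lars2, 3, 5 and 6 of 14 were highest in replicates 1, 2 and 3, 8 were lowest in replicate 1, and the median deviation was -0.17, 0.15 and 0.01. Erythroid markers were far higher in replicate 1, at a sum of 795 TPM, and their part was not tested. Iars2 (-0.50, -0.08 and 0.58) and Ears2 (-0.36, -0.14 and 0.50) were highest in replicate 3. Rars2 (0.52, 0.24 and -0.76) and Wars2 (0.53, 0.32 and -0.84) were lowest there. Some values may hold reads of other genes: Hars and Hars2 start head to head and overlap on opposite strands, Cars2 overlaps Naxd, Ears2 overlaps Ubfd1, Wars overlaps Wdr25 and Kars has an annotated pseudogene, Kars-ps1, and the sources used here do not say whether counting used strand.

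**Figure D4:**
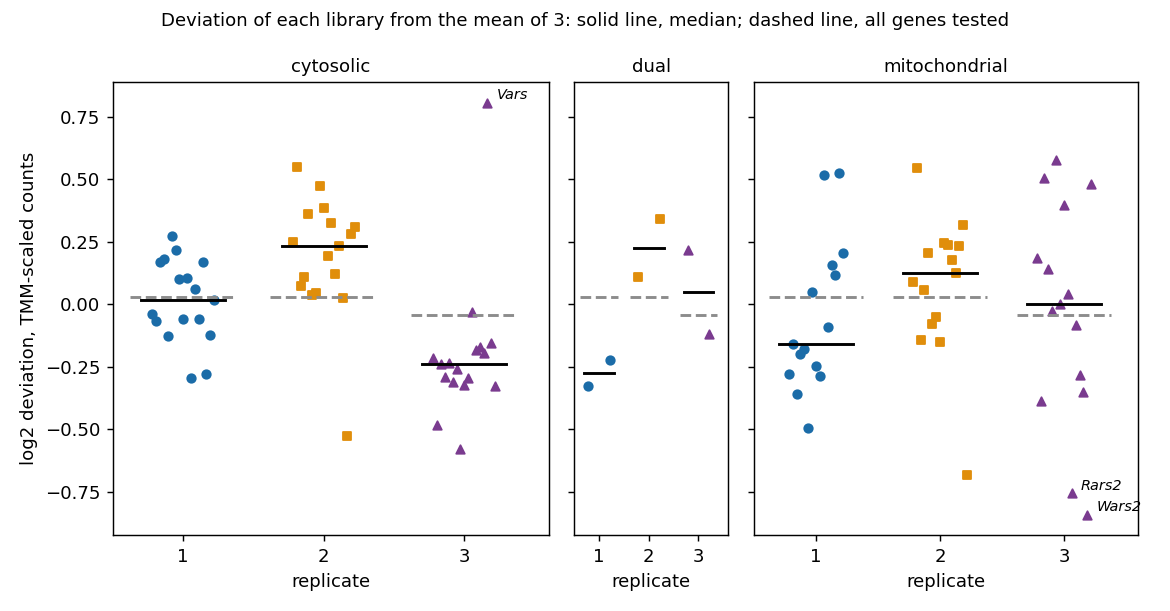
Log2 deviation of each synthetase gene from its mean over the 3 libraries, on TMM-scaled counts, for cytosolic, dual and mitochondrial genes. Solid lines are medians of the group and dashed lines the median of all genes tested. The cytosolic median is 0.23 in replicate 2 and -0.24 in replicate 3, with Vars at 0.81 in replicate 3.

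Transcript tables split each gene by the class of its transcripts. The leading transcript by mean TPM was protein-coding for 29 of the 34 genes, and for 30 in the second quantification, with the same leading transcript in 30. Protein-coding transcripts held over 90% of TPM for 13 genes, among them Sars (99.2% ± 0.46), Kars (99.3% ± 0.40) and Dars (98.6% ± 0.55). They held under 50% for 5 genes: Lars2 (0.87% ± 0.65), Cars2 (33.1% ± 2.95), Qars (33.2% ± 1.24), Vars2 (34.2% ± 10.7) and Wars2 (41.4% ± 9.35). In the second quantification 9 genes were under 50%, 4 of them shared with these, and Wars2 was at 83.4% ± 14.7.

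Qars combined a high level with many transcripts. Its leading transcript, Qars-231, annotated as subject to nonsense-mediated decay, held 30.7%, 31.4% and 28.5% of TPM. Protein-coding Qars-203 held 7.50, 16.9 and 13.5 TPM, and the short protein-coding Qars-233, of 544 bases, 18.5, 33.8 and 25.8 TPM. The share of protein-coding TPM in Qars was 31.2% ± 2.53 in the second quantification, near that of the main table.

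The leading transcript of the main table changed between libraries in 6 genes, Wars, Tars2, Nars, Ears2, Nars2 and Vars2, of which Wars and Tars2 are described here, chosen after their values were seen. For Wars, Wars-205 had 30.5, 0 and 0 TPM and Wars-201 had 4.50, 54.4 and 41.3 TPM, while the second quantification gave 13.3, 10.1 and 7.36 TPM for Wars-205 and 5.51, 18.0 and 14.1 TPM for Wars-201. The lead was with Wars-205 in replicate 1 in both, but in the second neither transcript was at 0. For Tars2, Tars2-201 held 13.6% of TPM in replicate 3, against 75.5% and 63.4% in replicates 1 and 2, and the second quantification gave 21.3%, against 73.3% and 63.3%.

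**Figure D5:**
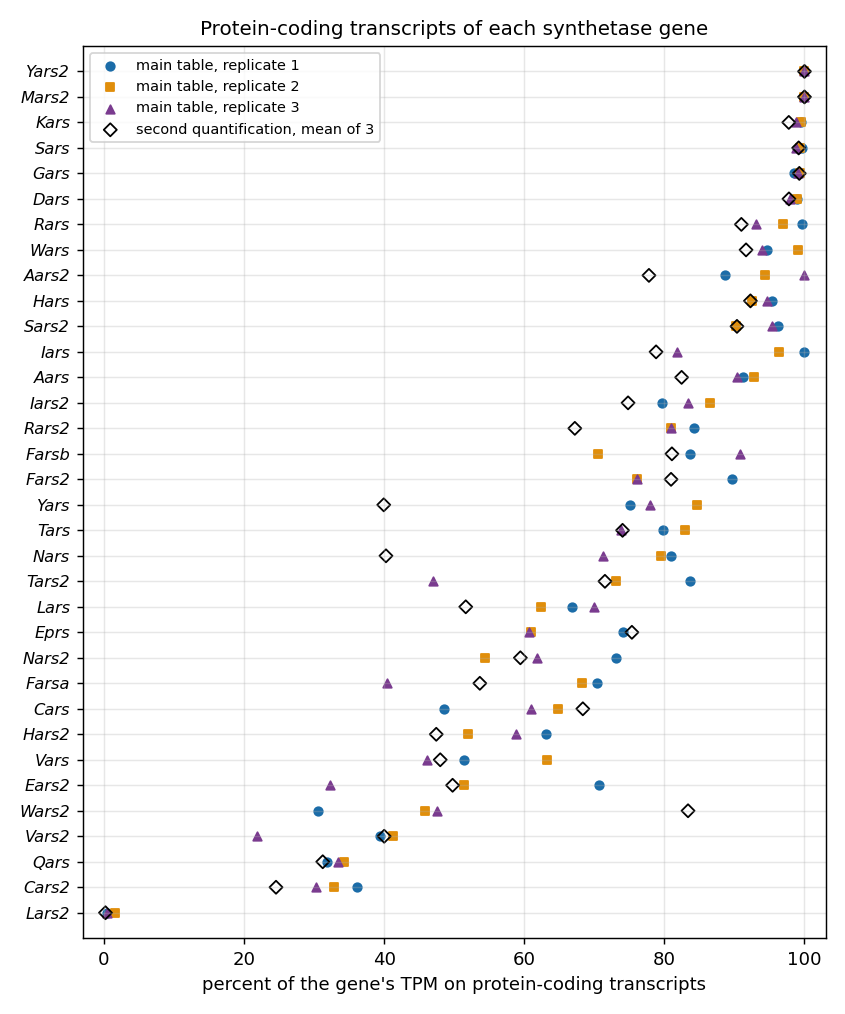
Percent of the TPM of each synthetase gene on protein-coding transcripts, with filled points for replicates 1, 2 and 3 of the main table and open diamonds for the mean of the second quantification. Lars2 lies near 0 in both, and Wars2 lies at 41.4% in the main table and 83.4% in the second quantification.

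A list of 49 other genes of tRNA charging and translation was read beside the synthetases. Of these, 44 averaged 10 counts or more. The chi-square test against sampling noise called 35 of the 44, beside 65.4% of all genes tested, and 0 of the 44 with edgeR's trended dispersion, where 0 also had an unadjusted p under 0.05. Without replicate 1 the first count was 23, beside 51.7% of all genes tested, and without replicate 3 it was 20, beside 32.2%. Of the 37 that averaged 100 counts or more, 31 were called against sampling noise, beside 77.2% of genes at that filter.

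Among the scaffolds and relatives of the complex, Aimp1, a scaffold subunit, had 90.6, 81.6 and 95.2 TPM, and Tarsl2, a second threonyl enzyme, had 1.47, 1.51 and 1.62 TPM. The 4 genes of this list were all highest in replicate 1 on TMM-scaled counts, as were 33.4% of all genes tested. For 2 of them replicate 3 was close, with deviations of 0.11, -0.20 and 0.09 for Aimp1 and 0.17, -0.32 and 0.15 for Tarsl2. On TPM, Aimp1 and Tarsl2 were highest in replicate 3, so the order depended on the scale. Among editing and proofreading factors, Dtd1, which removes D-amino acids from tRNA, had 56.8, 51.5 and 61.5 TPM. All 6 genes of that list were likewise highest in replicate 1 on TMM-scaled counts, but on TPM Dtd1 was highest in replicate 3.

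On the routes that replace a direct enzyme, Pstk, the kinase that acts on seryl-tRNA for selenocysteine, had 26.4, 32.5 and 33.4 TPM, and Sepsecs, which completes that route, had 3.20, 5.37 and 5.58 TPM. The elongation factor Eef1a1, which carries charged tRNA to the ribosome, was highest of the whole list at 9300.4, 9328 and 10622 TPM, and Eef1d, an exchange factor for it, had 414, 439 and 286 TPM. The mitochondrial counterpart Tufm had 61.9, 63.9 and 43.5 TPM, and the release factor gene Mtrf1l 3.49, 4.04 and 5.82 TPM. On TMM-scaled counts, 8 of the 9 mitochondrial translation factors were lowest in replicate 3, as were 45.6% of all genes tested.

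Of 19 genes of the amino acid response, 14 averaged 10 counts or more, and 12 of these were called against sampling noise, beside 65.4% of all genes tested. Eif2s1, the subunit of eIF2 that GCN2 phosphorylates, was highest with 174, 169 and 108 TPM. Chac1, an ATF4 target, had the lowest mean TPM, 0.123, with 0, 4 and 0 expected counts. Another gene of the list had the same expected counts. A count of 0 allows up to 3 counts, or a CPM (counts scaled to the library total) of 0.273 and 0.450 in replicates 1 and 3, for counting error only.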

How the data were processed

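Expected counts, TPM and the percent of each gene's TPM per transcript were deposited by the authors for 3 libraries, on GENCODE M21 gene models and mm10 per the file headers. A second deposited transcript table holds estimated counts and TPM, and the authors' gene table on M4 models gives counts as whole numbers. The sources used here do not name the programs. Replicate numbers come from the sample descriptions.

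Ensembl IDs were paired with symbols through the transcript tables. Members and lists were chosen with earlier results of these data known. Named genes were all 34 members and, of each list, the highest and lowest gene by mean TPM and any called with the trended dispersion (none was), except 1 that is not reported here. Levels were log2(TPM + 1). Expected counts were rounded and scaled with TMM (edgeR 4.0.16, R 4.3.3), and deviations used a prior count of 0.5. Genes averaging 10 counts or more entered a chi-square test over the libraries (2 degrees of freedom), adjusted over 12997 genes. The version against sampling noise was checked on simulated counts with set fold changes and sampling noise only. Those counts lack any further spread between libraries, and the version with trended dispersion was not checked. Alternatives used DESeq2 1.42.0 size factors, plain totals, other filters, edgeR's trended dispersion, the other tables and leaving out each library. M4 counts were divided by coding length for every matched gene with coding bases, all 34 members among them, and scaled over these genes as TPM is. Transcripts were compared with BLAST 2.17.0 (e-value at most 1e-20). Depth was 10981924, 9700630 and 6667391 expected counts.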

Additional observations from a re-analysis of the deposited data

How the results depend on the processing

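Of the 34 synthetases, 32 differed between libraries against sampling noise (65.4% of all genes), 1 with edgeR's trended dispersion (1.2%) and 23 to 28 when each library was left out in turn (51.7%, 53.6% and 32.2% without replicates 1, 2 and 3). Of the 44 other genes, read against the same shares, the counts were 35, 0 and 20 to 29, with 23 without replicate 1 and 20 without replicate 3. Other scalings, filters and tables kept the counts within 1.5 times. Among genes averaging 100 counts or more, 29 of 30 synthetases and 31 of 37 others were called against sampling noise (77.2% of such genes). The cytosolic minus mitochondrial median (2.31) was 2.77 on M4 counts per coding base, 2.99 on protein-coding transcripts only, 1.81 as a difference of means, and 2.23 to 2.35 when each library was left out. The comparison without Lars2 (2.44) and the counts of genes lowest in replicate 3 on TPM and M4 counts were added after seeing the data. Log2 Lars over Lars2 (-3.95) turned to 2.50 on M4 counts and 2.19 on protein-coding transcripts, but was -5.46 in the second quantification. Log2 Tars over Tars2 (-0.19) turned to 0.61 on M4 counts and 0.058 on protein-coding transcripts, but was -0.23 in the second quantification. The cause was not tested. A TPM of at least 1 in every library left every synthetase in. The smallest M4 counts, such as 34 for Yars2 in replicate 2, limit the precision of low genes. No paired analysis was possible because all 3 libraries form 1 group.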
